A study of Mus musculus with 48 samples.

Results

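Atglistatin is a small molecule that blocks ATGL, the adipose triglyceride lipase encoded by Pnpla2, which removes a fatty acid from stored triglyceride at the start of lipolysis. The muscles described here came from 16 corticosterone-treated mice whose labelled insulin value was 25 or more: 5 fed atglistatin and 11 fed control diet, of 48 libraries in the series and 28 from corticosterone-treated mice. All 16 were analysed. The selection used the insulin label and no expression value. The unit of insulin is not stated. On the atglistatin diet, 28.5 was the lowest value kept and 19.5 the highest left out; on the control diet these were 27.7 and 16.8.

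The mice were male C57BL6J, and the tissue was mixed gastrocnemius, the large calf muscle. Treatment lasted 2 weeks. Corticosterone was given at 100 ug/ml in the drinking water, and whether that water also held ethanol is not recorded. Vehicle mice drank 1% ethanol. Atglistatin was milled into the food (a Teklad diet) at 571 mg/kg, so the comparison is of a whole-body treatment and not of the lipase in muscle alone. Beside the 5 and 11 mice, the comparisons below use 9 atglistatin and 3 control-diet corticosterone mice with insulin under 25, and 10 atglistatin and 10 control-diet vehicle mice. Age is not given. The labels do not say that each library is 1 animal; each has a glucose and an insulin label of its own and was treated as 1 mouse, and p-values measure the spread between these libraries.

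Corticosterone is the main glucocorticoid of mice. In muscle, glucocorticoids act through a nuclear receptor that induces genes such as Fkbp5, and long exposure is known for muscle protein loss and insulin resistance. They also raise lipolysis in fat, which sends fatty acids to muscle, where these are burned, stored as triglyceride or sensed by PPAR receptors. Insulin has the opposite effect on lipolysis and induces lipogenic genes. The comparison asks what an ATGL inhibitor on top of corticosterone does to muscle RNA in animals that kept a high insulin value.

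Insulin was 31.8 ± 3.1 (SD, n = 5) on atglistatin and 36.6 ± 4.1 (SD, n = 11) on control diet; since it chose the mice, it was not tested. Fed glucose, which the selection did not use and whose unit is not stated, was 124, 130, 133, 138 and 129 in the atglistatin mice p17, p18, p23, p24 and p39. In the control-diet mice it ran from 131 through a median of 266 to 407. Mean glucose was 130.8 ± 5.2 (SD, n = 5) against 260.4 ± 75.9 (SD, n = 11), 129.6 lower on atglistatin (two-sided exact permutation test of the difference in means, p = 0.00252; the smallest p this design allows is 0.000229). All 5 atglistatin mice were labelled nondiabetic, and 8 of the 11 control-diet mice diabetic. Diet and diabetes therefore cannot be told apart against those 8. Against the 3 nondiabetic control-diet mice (p29, p36 and p49, with glucose of 141, 242 and 131), glucose was 40.5 lower (exact permutation p = 0.0536; smallest possible p 0.0179).

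**Figure D1:**
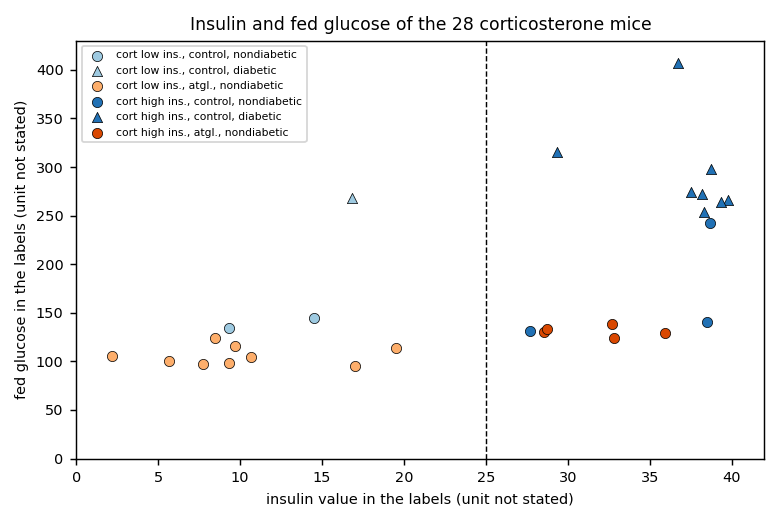
Labelled insulin (x axis) against fed glucose (y axis), units not stated, for the 28 corticosterone mice; each point is 1 mouse, triangles are labelled diabetic, and the dashed line is the threshold of 25. Right of the line, the 5 atglistatin mice lie between 124 and 138 in glucose, and 8 of the 11 control-diet mice are diabetic.

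Libraries of the 16 mice held 10585234 to 22921262 counts, so 1 CPM, the usual library-scaled unit of counts, stands for 10.6 to 22.9 counts. Levels below are CPM scaled by TMM factors, and counting was of short reads near transcript ends (QuantSeq). Within a group, each of the 16 libraries had a median correlation of log levels with its fellows of 0.964 to 0.974. On the first 2 principal components (14.5% and 9.55% of the variance) the groups overlapped; atglistatin mouse p24 and control-diet mouse p28 lay at opposite ends of the second. Markers of skeletal myofibres, the labelled tissue, summed to 120200 to 146900 CPM on atglistatin and 124300 to 157300 on control diet. Summed adipocyte markers were 1036 to 2038 against 799.5 to 2176 CPM, macrophage markers 109.9 to 158.4 against 117.8 to 209.5, tendon markers 95.85 to 141.4 against 90.41 to 249, and erythroid markers 964 to 2386 against 1188 to 1747. All these ranges overlapped. In 12 lists of cell type markers no gene passed the threshold (edgeR quasi-likelihood test with Benjamini-Hochberg adjustment), and neither did any with DESeq2 or limma voom. At an unadjusted p under 0.05, 3 of 11 fibro-adipogenic progenitor markers and 1 tendon, 1 smooth muscle, 1 satellite cell and 1 lymphocyte marker were lower, and none was higher. Of all genes, 8.62% reached that p in either direction. The progenitor list had a median log2 fold change of 0.01. In whole muscle, fewer cells of a type and less RNA per cell cannot be told apart.

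Few genes passed the threshold between atglistatin and control diet in these mice. Of 13482 genes tested, 6 passed an adjusted p of 0.05, which is 0.0445% (edgeR quasi-likelihood test over all 48 libraries). Higher on atglistatin were Mylk2, Itgb5, Gyg, Lrrc2 and 2410006H16Rik, and Dupd1 was lower. At an unadjusted p under 0.05 there were 1162 genes, 8.62% of those tested (616 higher, 546 lower), and the median log2 fold change of all genes was -0.004. DESeq2 on the same design called 54 genes (23 higher, 31 lower), and limma voom with quality weights 25 (18 higher, 7 lower). All 6 genes were among DESeq2's calls and 5 among voom's, which left out Dupd1. The 95% interval of the fold change lay within 2-fold in either direction for 79.2% of genes and within 1.5-fold for 56.9%. For genes of 5 to 50 CPM these shares were 98.0% and 86.5%, and for genes under 1 CPM 13.7% and 0%. With counts halved the same 6 genes passed. With the spread estimated from the 16 libraries alone, 2 genes passed, Mylk2 and Mical2. Of the 6, only Mylk2 was thus kept. The count depended on single mice: without p18 no gene passed by edgeR (1148 at an unadjusted p under 0.05), without p17 3 did, without p39 22, and without control-diet mouse p45 30.

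Mylk2 encodes skeletal muscle myosin light chain kinase, which phosphorylates the regulatory light chain when calcium rises and so potentiates fast fibre contraction. It lies at chr2:152911352-152923068 on the + strand (GRCm38). On atglistatin it measured 976.2, 1192, 982.1, 693.4 and 826.5 CPM in p17, p18, p23, p24 and p39. The 11 control-diet mice ran from 559.8 through a median of 604.6 to 668.1 CPM. Every atglistatin mouse was above every control-diet mouse, p18 highest and p24 nearest to them. The rise was 1.53-fold (95% interval 1.34 to 1.75; log2 fold change 0.61, SE 0.10; adjusted p = 0.000527, edgeR). Vehicle mice on control diet had 373.1 ± 43.0 CPM (SD, n = 10), lower than either group. Mylk2 fell short of the threshold without p18 (adjusted p = 0.0863, edgeR), with a log2 fold change of 0.50.

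Itgb5, the beta 5 subunit of integrin receptors for vitronectin and other matrix ligands (chr16:33829665-33949338, + strand), measured 32.44, 36.60, 34.98, 32.28 and 34.45 CPM on atglistatin. Control-diet mice ran from 19.69 through 25.06 to 29.30 CPM, and the groups did not overlap. The rise was 1.38-fold (95% interval 1.23 to 1.55; log2 fold change 0.46, SE 0.08; adjusted p = 0.00679, edgeR). Here the vehicle control-diet mice stood above the corticosterone control-diet mice, at 32.77 ± 3.46 CPM (SD, n = 10), a level next to that of the atglistatin mice.

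Gyg encodes glycogenin, the self-glucosylating protein that primes each glycogen particle (chr3:20122084-20155317, - strand). It measured 320.3, 367.9, 307.8, 294.7 and 271.9 CPM on atglistatin against 194.7 through 230.7 to 270.1 CPM on control diet. These groups did not overlap either, though p39 lay just above the highest control-diet mouse. The rise was 1.36-fold (95% interval 1.20 to 1.53; log2 fold change 0.44, SE 0.09; adjusted p = 0.0189, edgeR).

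Lrrc2, a leucine-rich repeat protein (chr9:110951545-110984066, + strand), measured 173.9, 216.1, 188.6, 185.0 and 132.5 CPM on atglistatin. Control-diet mice ran from 93.15 through 117.3 to 182.3 CPM, so 3 of 5 atglistatin mice were above all of them and p39 was well inside their range. The rise was 1.46-fold (log2 fold change 0.55, SE 0.12; adjusted p = 0.0331, edgeR). The noncoding transcript 2410006H16Rik (chr11:62602877-62604807, + strand), which the naming rule leaves out for its symbol and which hosts Snord49a, Snord49b and Snord65 on its strand, measured 57.55, 49.26, 36.50, 45.59 and 38.44 CPM against 19.38 through 28.48 to 43.34 CPM. It rose 1.54-fold (log2 fold change 0.62, SE 0.13; adjusted p = 0.0331, edgeR). Both genes were close to the threshold: over 31 alternative settings Lrrc2 passed in 10 and 2410006H16Rik in 13, in the same direction throughout.

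Dupd1, a dual-specificity phosphatase of muscle (chr14:21676537-21714576, - strand), was the single gene that fell. It measured 3.12, 1.81, 4.67, 6.25 and 5.58 CPM on atglistatin and ran from 4.46 through 11.66 to 21.31 CPM on control diet. In 10 of 11 control-diet mice it was above all 5 atglistatin mice. The fall was to 0.331 of the control-diet level (95% interval 0.215 to 0.509; log2 fold change -1.59, SE 0.31; adjusted p = 0.0189, edgeR). Vehicle mice had 71.25 ± 17.0 CPM (SD, n = 10) on control diet, so both corticosterone groups were far below vehicle and the atglistatin mice farther.

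**Figure D2:**
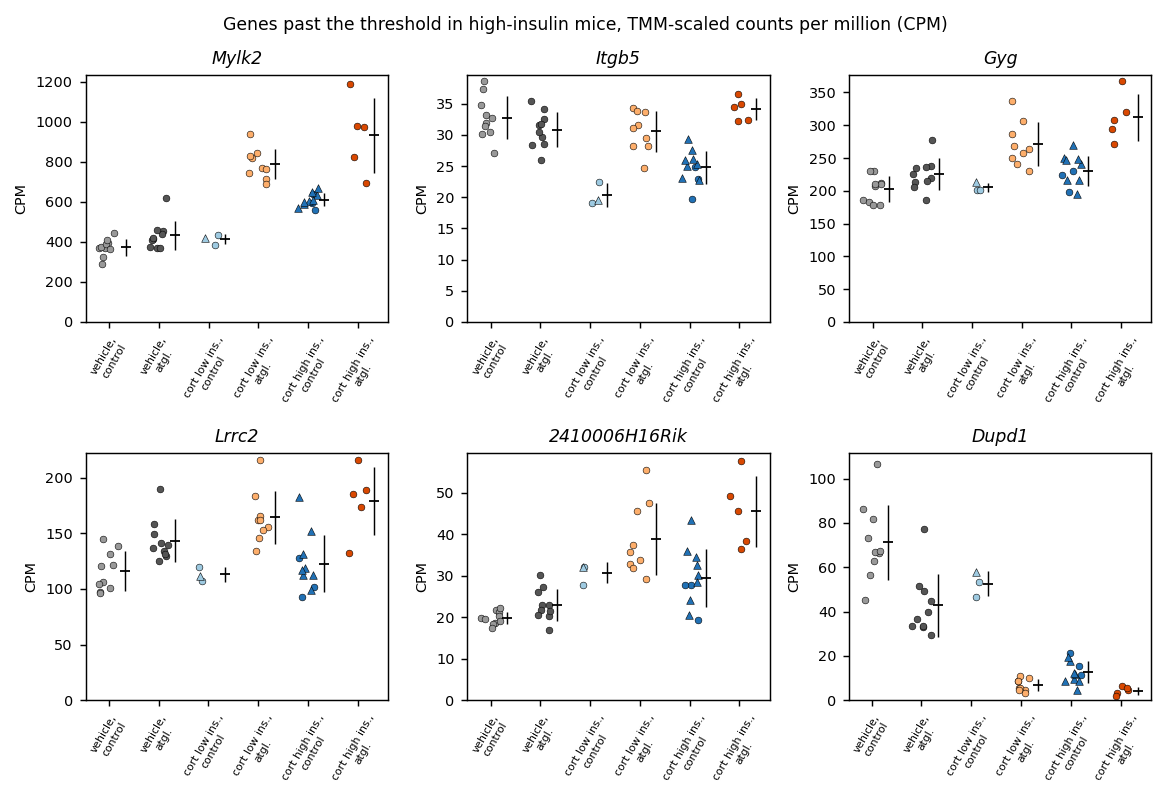
TMM-scaled CPM (y axis, from 0) of the 6 genes past the threshold in each of the 48 libraries, by group (x axis; atgl., atglistatin; ins., insulin); triangles are mice labelled diabetic, and bars are mean ± SD. In the high-insulin groups at the right, the atglistatin points clear all control-diet points for Mylk2, Itgb5 and Gyg and overlap them for the other 3 genes.

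Promoter sequences, 250 bases before to 50 after the transcript start, were in the RefSeq table (GRCm38.p6) for 5 of the 6 genes. They are shown for 3 of the genes that rose and for Dupd1 because these genes passed the test in 1 comparison. Capitals mark every match, on either strand, to the 4 motifs searched: CAGCTG (the E-box favoured by myogenic factors), CACGTG (a palindromic E-box), AGGTCA (the nuclear receptor half-site, TGACCT on the other strand) and AGAACA (a glucocorticoid receptor half-site, TGTTCT on the other strand). None of the motifs contains another.
Itgb5 promoter, chr16:33829415-33829714, + strand: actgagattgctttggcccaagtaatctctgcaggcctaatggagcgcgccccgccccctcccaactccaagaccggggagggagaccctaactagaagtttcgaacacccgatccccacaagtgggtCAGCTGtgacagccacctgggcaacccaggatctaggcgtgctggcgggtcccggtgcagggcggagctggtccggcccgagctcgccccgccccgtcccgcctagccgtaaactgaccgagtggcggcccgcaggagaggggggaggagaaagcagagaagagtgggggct
Gyg promoter, chr3:20155067-20155366, - strand: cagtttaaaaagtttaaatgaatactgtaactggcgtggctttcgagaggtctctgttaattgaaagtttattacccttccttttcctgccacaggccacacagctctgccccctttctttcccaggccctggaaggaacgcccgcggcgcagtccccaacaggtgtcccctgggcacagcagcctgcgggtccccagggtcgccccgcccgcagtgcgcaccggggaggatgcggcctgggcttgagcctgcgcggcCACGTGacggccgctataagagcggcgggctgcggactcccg
Lrrc2 promoter, chr9:110951295-110951594, + strand: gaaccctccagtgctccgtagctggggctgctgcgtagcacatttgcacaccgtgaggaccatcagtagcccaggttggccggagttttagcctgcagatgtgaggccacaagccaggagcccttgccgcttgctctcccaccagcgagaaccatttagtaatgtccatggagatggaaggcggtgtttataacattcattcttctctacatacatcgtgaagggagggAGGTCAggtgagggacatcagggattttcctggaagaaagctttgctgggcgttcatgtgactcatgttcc
Dupd1 promoter, chr14:21714527-21714826, - strand: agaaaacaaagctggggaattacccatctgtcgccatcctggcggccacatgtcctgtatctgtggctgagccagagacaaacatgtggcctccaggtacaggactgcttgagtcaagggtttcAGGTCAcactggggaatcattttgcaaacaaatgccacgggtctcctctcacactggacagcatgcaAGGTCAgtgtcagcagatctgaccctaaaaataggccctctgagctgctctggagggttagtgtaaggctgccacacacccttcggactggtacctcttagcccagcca
Itgb5 held 1 CAGCTG, Gyg 1 CACGTG, Lrrc2 1 AGGTCA and Dupd1 2 AGGTCA, and none held AGAACA. The promoter of 2410006H16Rik held none of the 4 motifs. Of 32851 promoters of this length in the table, 16.3% held CAGCTG, 7.15% CACGTG, 16.3% AGGTCA and 19% AGAACA. No motif was found in all 5 promoters, and AGGTCA was found in those of Lrrc2 and Dupd1.

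The nondiabetic control-diet mice give a comparison within 1 disease state, with only 3 libraries on their side. Against them 3 of 13482 genes passed (0.0223%, edgeR): Zcchc24 and Itgb5 were higher and Dupd1 lower. Zcchc24, a zinc finger protein, measured 105.4, 86.28, 92.34, 75.05 and 70.81 CPM on atglistatin against 49.60, 50.32 and 52.02 CPM in the 3 nondiabetic mice, a log2 fold change of 0.76 (adjusted p = 0.0173). Diabetic control-diet mice had 66.44 ± 15.3 CPM (SD, n = 8) and reached 100.2 CPM, inside the atglistatin range. Itgb5 differed by 0.60 (adjusted p = 0.0242) and Dupd1 by -1.93 (adjusted p = 0.0249). For Mylk2, 2410006H16Rik, Lrrc2 and Gyg the log2 fold changes were 0.64, 0.87, 0.73 and 0.52, each at least as large as against all 11 mice, with adjusted p-values of 0.0521, 0.0521, 0.0628 and 0.0946 that missed the threshold. Against the 8 diabetic mice alone 2 genes passed (0.0148%, edgeR), Mylk2 (higher) and Serf1 (lower, log2 fold change -1.04, adjusted p = 0.0494). DESeq2 called 14 genes against the nondiabetic mice and voom 11, while leaving out p17, p18, p36 or p49 left none by edgeR (840, 899, 794 and 695 at an unadjusted p under 0.05).

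The list of fatty acid synthesis genes held more genes with an unadjusted p under 0.05 and a lower level on atglistatin than any of the other 40 lists, although none passed the threshold by edgeR. Of 21 tested genes for fatty acid and triglyceride synthesis, 0 passed, 9 were lower at an unadjusted p under 0.05 and 0 higher; DESeq2 called 2 lower (Acly and Slc25a1) and voom 0. The list's median log2 fold change was -0.40, beside -0.004 for all genes. Of all genes, 8.62% had an unadjusted p under 0.05 in either direction, the share to set beside each list count below. Acly, ATP citrate lyase, which makes cytosolic acetyl-CoA, measured 9.51, 9.32, 7.06, 6.46 and 9.89 CPM on atglistatin and ran from 7.15 through 17.14 to 25.90 CPM on control diet; 9 of 11 control-diet mice were above all 5 (log2 fold change -0.89, SE 0.22; adjusted p = 0.0899, edgeR). Slc25a1, the mitochondrial citrate carrier, measured 2.65, 2.37, 3.37, 1.01 and 3.03 against 2.10 through 6.11 to 11.34 CPM (log2 fold change -1.28, SE 0.36; adjusted p = 0.158). For Fasn, fatty acid synthase, the values were 23.55, 16.70, 42.48, 10.09 and 31.74 against 13.99 through 61.61 to 93.17 CPM (log2 fold change -1.20, SE 0.39; adjusted p = 0.257). Elovl6, which elongates palmitate, was near 1 CPM on atglistatin (0.40 to 1.96) and ran from 0.25 through 3.13 to 6.87 CPM on control diet (log2 fold change -1.70, SE 0.51; adjusted p = 0.185). Scd1, the delta-9 desaturase, measured 42.73, 27.27, 104.7, 22.39 and 56.30 CPM against 6.94 through 153.6 to 266.9 CPM (log2 fold change -1.57, SE 0.52; adjusted p = 0.271). Thrsp, the Spot14 lipogenic regulator, had -0.93 (SE 0.27; adjusted p = 0.171). With all 28 corticosterone mice and insulin as a covariate, Acly had -0.22 (adjusted p = 0.85), Thrsp -0.22 (adjusted p = 0.855), Slc25a1 -0.72, Fasn -0.65 and Elovl6 -1.10, each closer to 0 by over 1.5 times. Scd1 did not shrink in this way: over all 31 alternatives, this one included, it stayed between -2.18 and -1.26. With no selection on insulin, 14 against 14 mice and no covariate, the result went the other way. Acly, Slc25a1, Fasn, Elovl6, Scd1 and Thrsp were then all lower past the threshold by edgeR. Adjusted p was 0.0172 for Fasn, 0.0104 for Elovl6, 0.00128 for Scd1 and 0.0246 for Thrsp.

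On the CPM scale these genes spread more widely among the control-diet mice. All 5 atglistatin mice were below the control-diet mean for each of the 6, while the ranges of the diets overlapped. The 3 nondiabetic control-diet mice had the higher levels: Fasn was 80.06 ± 11.3 CPM (SD, n = 3) in them and 49.32 ± 24.8 CPM (SD, n = 8) in the diabetic mice, and Scd1 230.2 ± 47.3 and 122.2 ± 82.9 CPM. Vehicle mice on control diet had Fasn at 27.15 ± 15.6 and Scd1 at 63.34 ± 45.7 CPM (SD, n = 10), next to the atglistatin means of 24.91 ± 12.7 and 50.68 ± 33.03 CPM (SD, n = 5). Tkt, transketolase of the pentose phosphate pathway, and Pygl, the liver-type glycogen phosphorylase, had log2 fold changes of -0.82 and -1.19 (adjusted p = 0.12 and 0.101, edgeR). Adipocytes express the lipogenic genes too. Summed adipocyte markers overlapped between the diets (medians 1424 and 1588 CPM), with 0 of 10 past the threshold or at an unadjusted p under 0.05 and a median log2 fold change of -0.27; their part in the lipogenic values was not tested.

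**Figure D3:**
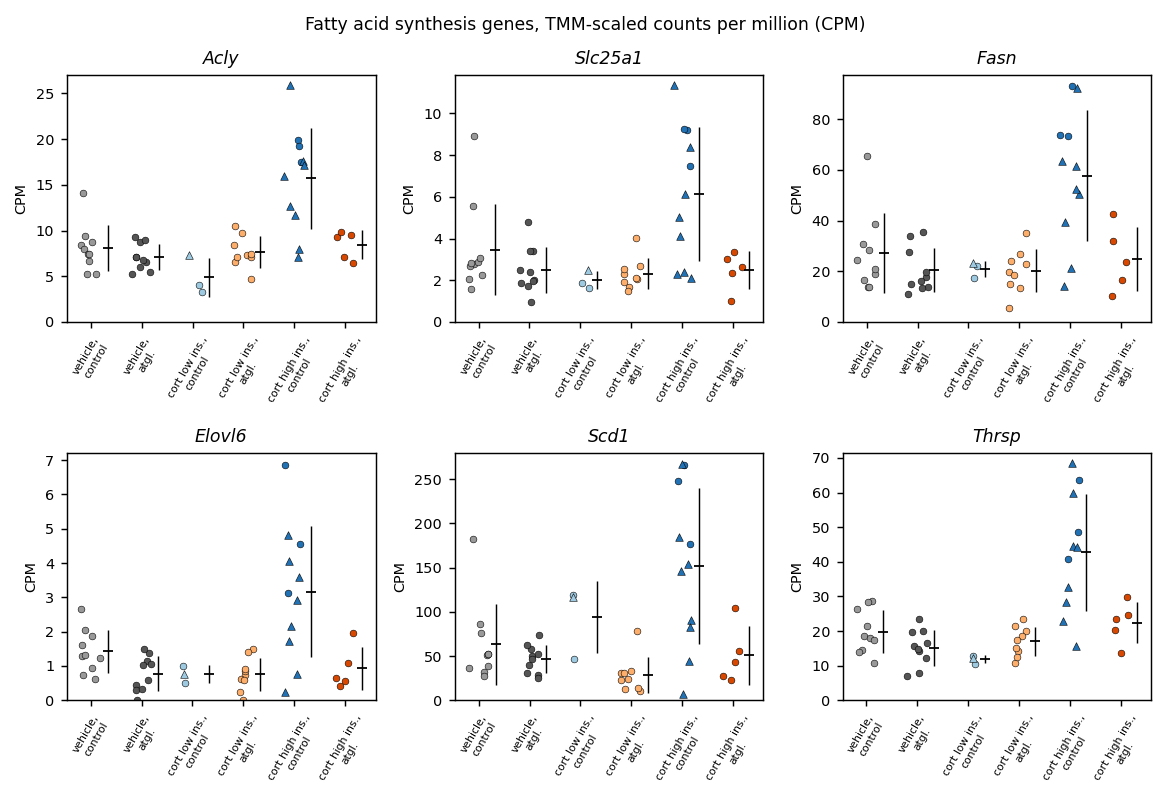
TMM-scaled CPM (y axis, from 0) of 6 fatty acid synthesis genes in each of the 48 libraries, by group (x axis; atgl., atglistatin; ins., insulin); triangles are mice labelled diabetic, and bars are mean ± SD. High-insulin control-diet mice spread from the level of the other groups to several times above it, and the 5 high-insulin atglistatin mice stay at the lower end.

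Fatty acid oxidation genes leaned the other way by small amounts. Of 35 tested, 0 passed by edgeR, DESeq2 or voom, 9 were higher and 0 lower at an unadjusted p under 0.05, and the median log2 fold change was 0.17. The share of all genes at that unadjusted p was 8.62%. Cpt2, the inner-membrane carnitine palmitoyltransferase, had 0.30 (SE 0.09; adjusted p = 0.168), and Hadhb, of the trifunctional protein, 0.34 (SE 0.10; adjusted p = 0.172). Acacb, whose product malonyl-CoA restrains mitochondrial fatty acid uptake, had 0.42 (SE 0.13; adjusted p = 0.173). Among 34 PPAR and fatty-acid responsive genes 0 passed by any of the 3 tools, with 5 higher and 1 lower at an unadjusted p under 0.05. Lpl, the lipase that takes fatty acids from circulating lipoproteins, measured 721.3, 571.6, 893.0, 961.3 and 624.6 CPM against 476.1 through 564.4 to 725.4 CPM on control diet (log2 fold change 0.40, SE 0.13; adjusted p = 0.243), and -0.09 with insulin as a covariate over all corticosterone mice. Txnip, a glucose-responsive inhibitor of thioredoxin, had -0.56 (SE 0.22; adjusted p = 0.414).

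The inhibitor's target and its partners showed no change past the threshold. Pnpla2 measured 342.8, 264.8, 341.3, 333.9 and 339.7 CPM on atglistatin against 214.4 through 252.9 to 685.9 CPM (log2 fold change 0.15, 95% interval -0.22 to 0.52). Without control-diet mouse p45, the highest, the Pnpla2 value was 0.36, and with insulin as a covariate over all corticosterone mice it was -0.16. Atglistatin blocks the enzyme, so this transcript does not check the inhibition. Abhd5, the ATGL co-activator, had a log2 fold change of 0.06, G0s2, an ATGL inhibitor protein, -0.27, and Lipe, hormone-sensitive lipase, -0.06. The droplet coat genes Plin2, Plin4 and Plin5 had -0.21 (95% interval -0.59 to 0.18), -0.02 and -0.11. Angptl4, a fatty-acid induced inhibitor of Lpl, had -0.41 with a wide interval of -1.34 to 0.51, and Pdk4, the pyruvate dehydrogenase kinase induced by fasting, -0.77 with -1.79 to 0.25. Pdk4 ranged from 33.69 to 171.3 CPM on atglistatin and from 29.65 to 379.5 CPM on control diet, and against the nondiabetic control-diet mice alone its log2 fold change was 0.04. In the list of 30 lipolysis and lipid droplet genes 0 passed by any of the 3 tools, with 1 higher and 2 lower at an unadjusted p under 0.05. That count is near the share over all genes, 8.62%.

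Glucocorticoid receptor targets held no call. None of 32 passed by edgeR, DESeq2 or voom, and none reached even an unadjusted p under 0.05, beside 8.62% of all genes; the median log2 fold change was -0.06. Fkbp5, the receptor's co-chaperone and its inducible target, measured 301.9, 364.3, 231.1, 214.0 and 330.9 CPM on atglistatin and 225.9 through 316.8 to 364.9 CPM on control diet. Its log2 fold change was -0.06 with a 95% interval of -0.39 to 0.28, while vehicle control-diet mice had 28.71 ± 6.86 CPM (SD, n = 10). Tsc22d3, the leucine zipper protein GILZ, had -0.11 (95% interval -0.35 to 0.12), and Glul, glutamine synthetase, -0.30 (95% interval -0.65 to 0.05). With insulin as a covariate over all corticosterone mice, Glul passed the threshold at -0.59 (adjusted p = 0.0297, edgeR).

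Genes of muscle protein breakdown were not called either, and their intervals left room for a rise. Among 25 ligases and FoxO targets of atrophy 0 passed by any of the 3 tools. At an unadjusted p under 0.05, 6 were higher and 0 lower, beside 8.62% of all genes. Fbxo32 (atrogin-1) measured 995.8, 1014, 796.0, 589.3 and 638.0 CPM against 300.0 through 507.0 to 1487 CPM (log2 fold change 0.33, 95% interval -0.12 to 0.78), and Trim63 (MuRF1) 1545, 1641, 1130, 945.9 and 1029 against 489.5 through 732.3 to 2606 CPM (log2 fold change 0.36, 95% interval -0.17 to 0.88). The control-diet range held all 5 values of both ligases. Without p45, the highest control-diet mouse for both, the values were 0.53 and 0.62, and Trim63 was -0.23 with insulin as a covariate over all corticosterone mice. Mstn, myostatin, had 0.03 (95% interval -0.34 to 0.41). Fbxo31, a cell-cycle F-box protein, had 0.30, the autophagy gene Gabarapl1 0.40 and the ubiquitin gene Ubb 0.29, with adjusted p-values of 0.173, 0.118 and 0.22 (edgeR). Proteasome genes (34) and autophagy and lysosome genes (27) each had 6 higher and 0 lower at an unadjusted p under 0.05, and 0 called by any of the 3 tools.

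In glycogen metabolism, 1 of 20 genes passed, Gyg, and 5 were higher and 2 lower at an unadjusted p under 0.05, beside 8.62% of all genes. Genes of synthesis were among the 5: Gys1, muscle glycogen synthase, had a log2 fold change of 0.24, Gbe1, the branching enzyme, 0.33, and Ugp2, which makes UDP-glucose, 0.27 (adjusted p = 0.31, 0.308 and 0.158, edgeR). Gaa, the lysosomal glucosidase that degrades glycogen, had 0.36 (adjusted p = 0.226). The 2 lower were Ppp1r3b and Ppp1r3c, subunits that target protein phosphatase 1 to glycogen, at -0.81 and -0.42. Pygm, muscle phosphorylase, had 0.02.

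Insulin, IGF and mTOR signalling had 0 of 38 past the threshold by edgeR or voom and 1 lower by DESeq2. At an unadjusted p under 0.05, 4 were higher and 4 lower, beside 8.62% of all genes. Irs2, an insulin receptor substrate, had a log2 fold change of 0.57 and Tbc1d4, the AKT substrate of glucose transporter traffic, 0.35. Igfbp5, an IGF binding protein, had -0.96 and Rictor, of mTOR complex 2, -0.51 (edgeR adjusted p of these 4 genes from 0.165 for Rictor to 0.352 for Tbc1d4). Slc2a4, the insulin-responsive glucose transporter GLUT4, had -0.07 and Hk2, hexokinase 2, 0.08. Among extracellular matrix genes 0 of 39 passed by any of the 3 tools, and 4 were lower at an unadjusted p under 0.05, among them Col1a2 (-0.72) and Col3a1 (-0.77). The matrix count is near the share over all genes. Nuclear-encoded oxidative phosphorylation genes (77) and cytosolic ribosomal protein genes (81) had 0 called by any of the 3 tools, medians of 0.06 and 0.03, and 2 and 1 higher at an unadjusted p under 0.05. Metallothionein and acute phase genes (11 tested) had a lower median than the synthesis list, -0.51, with 0 called by any of the 3 tools and 1 lower at an unadjusted p under 0.05. Slow fibre genes (15) had a median of 0.30 and fast fibre genes (15) -0.07, with 0 called by any of the 3 tools.

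**Figure D4:**
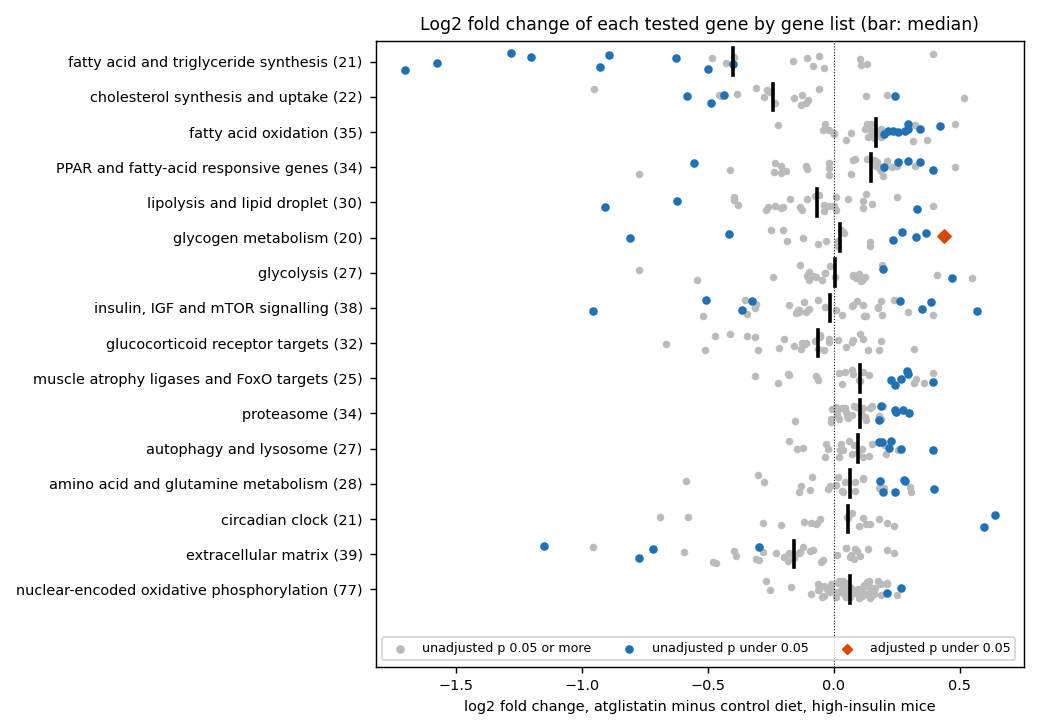
Log2 fold change, atglistatin minus control diet in high-insulin mice (x axis), of each tested gene in 16 gene lists (y axis, number tested in brackets); black bars are list medians, blue points have an unadjusted p under 0.05 and the orange diamond, Gyg, an adjusted p under 0.05. Of the 16 lists shown, fatty acid synthesis has the lowest median, -0.40, and fatty acid oxidation sits at 0.17.

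Genes just short of the threshold were named after their values were seen, as were the uncalled list members given above as examples. Mical2, an oxidase that disassembles actin filaments, measured 37.74, 40.77, 36.72, 33.49 and 41.79 CPM on atglistatin and 52.83 through 66.18 to 118.4 CPM on control diet, without overlap (log2 fold change -0.92, SE 0.21; adjusted p = 0.0783, edgeR; called by DESeq2 at adjusted p = 0.00246 and by voom at 0.00912). Il15ra, the receptor subunit that presents interleukin 15, had -0.79 (adjusted p = 0.0855), Mybph, a myosin binding protein, -1.09 (adjusted p = 0.129), and Fst, the myostatin and activin antagonist follistatin, -1.11 (adjusted p = 0.14). Higher were Rbl2, a pocket protein of the retinoblastoma family, at 0.39 (adjusted p = 0.0783), and Furin, a proprotein convertase, at 0.38 (adjusted p = 0.0899). DESeq2 and voom both called Rbl2 and Furin, and DESeq2 alone called Il15ra, Mybph and Fst. Of 117 genes tabulated for naming, 46 overlap a gene on the opposite strand, among them Rbl2, Furin, Mybph, Fst, Fkbp5, Glul, Fbxo32, Elovl6 and Actc1, and 23 one on their own strand, among them Lrrc2, 2410006H16Rik, Acly, Fkbp5, Glul, Elovl6 and Per3. Mylk2, Itgb5, Gyg, Dupd1, Zcchc24, Mical2 and Sparc overlap none. No source used here says whether the counting used strand, so reads of such pairs cannot be told apart.

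Set beside the effect of atglistatin in vehicle mice, that in high-insulin mice differed for 2 of 13482 genes (0.0148%, edgeR test of the difference; 623 at an unadjusted p under 0.05). Sparc, a collagen-binding matrix glycoprotein, had a difference of 0.75 (SE 0.14; adjusted p = 0.0332). In high-insulin mice it measured 278.5, 247.3, 271.7, 229.6 and 258.2 CPM on atglistatin against 189.7 through 245.1 to 278.0 CPM on control diet, a log2 fold change of 0.09. In vehicle mice it was 224.8 ± 35.3 against 354.2 ± 64.1 CPM (SD, n = 10 each), -0.66. Itgb5 had a difference of 0.55 (SE 0.11; adjusted p = 0.0427), from 0.46 in high-insulin mice and -0.09 in vehicle mice. The vehicle comparison itself called 12 genes (0.089%). Fkbp5 had a difference of -0.84 (SE 0.22) that missed the threshold (adjusted p = 0.727), with log2 fold changes of -0.06 in high-insulin and 0.78 in vehicle mice. For Mylk2 the difference was 0.40 (SE 0.13; adjusted p = 0.954), for Gyg 0.29 (SE 0.11), for Lrrc2 0.24 (SE 0.15) and for Dupd1 -0.86 (SE 0.36), each with an adjusted p of 1 except Mylk2. Sparc was lost without p17, p18, p23, p39, p36, p49 or low-insulin control-diet mouse p33 (highest adjusted p 0.11), and Itgb5 passed in 6 of 26 alternatives. No vehicle mouse was left out in these alternatives.

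Set beside low-insulin corticosterone mice, the difference was larger. The effect of atglistatin in the 9 and 3 low-insulin mice differed from that in high-insulin mice for 197 of 13482 genes (1.46%, edgeR; 131 with a higher and 66 with a lower value in high-insulin mice), and the low-insulin comparison alone called 549 genes (4.07%). All 9 low-insulin atglistatin mice were labelled nondiabetic, as were control-diet mice p32 and p33, while p34 was labelled diabetic. Diet and disease state were therefore not separated in this comparison either. The 3 low-insulin control-diet mice, p32, p33 and p34, stood apart from the other corticosterone mice. Their summed adipocyte markers were 3857 to 4524 CPM, against 799.5 to 2687 CPM in the other 25, and their summed lymphocyte markers 41.53 to 43.67 CPM against 1.26 to 12.07 CPM. Vehicle mice on control diet had 3274 to 4717 and 25.35 to 119.3 CPM. The adipocyte sum does not stand for its list. At an unadjusted p under 0.05 (edgeR), 4 of 10 adipocyte markers were lower in the 3 mice than in low-insulin atglistatin mice, and 1 was higher. The list's median log2 fold change, atglistatin minus control diet, was 0.61 there. Only 2 of 10 lymphocyte markers were tested, and Ighm, given below, made up nearly all of that sum in the 3 mice. Fkbp5, at 445.5 to 459.0 CPM in the 3 mice, was far above its vehicle level; the part of other cell types in the difference was not tested. Leaving out p32, p33 or p34 lowered the number of genes called to 45, 87 or 76, and leaving out p24 to 104. With no selection on insulin, 14 against 14 mice, atglistatin called 201 genes (1.6% of 12592).

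Among genes named by the rule, the 3 low-insulin control-diet mice held the level that differed most. Actc1, cardiac actin, which adult muscle expresses at low levels, had 17.49 ± 5.80 CPM on atglistatin (SD, n = 5) and 19.16 ± 7.99 on control diet (SD, n = 11) in high-insulin mice, and 23 ± 10.1 (SD, n = 9) and 196.0 ± 48.4 CPM (SD, n = 3) in low-insulin mice. Vehicle mice on control diet had 229.1 ± 52.5 CPM of Actc1 (SD, n = 10). Its difference of effects was 2.95 (SE 0.44; adjusted p = 8.59e-05). Sox4, a developmental transcription factor, had 9.64, 10.26, 8.72 and 50.46 CPM in the same order (difference 2.43, SE 0.34), and Slc25a34, a mitochondrial carrier, 23.26, 16.92, 15.14 and 53.67 CPM (difference 2.28, SE 0.36). Ighm, the immunoglobulin heavy chain of B cells, had 2.53, 6.51, 2.93 and 42.42 CPM (difference 2.49, SE 0.67). On the lower side, Per3, a clock repressor, had 8.54, 5.49, 9.13 and 1.70 CPM (difference -1.76, SE 0.35), Scx, the tendon transcription factor scleraxis, 26.13, 31.71, 26.91 and 9.07 CPM (difference -1.85, SE 0.29) and Mylk4, a myosin light chain kinase family member, 400.7, 420.3, 475.2 and 142.4 CPM (difference -1.81, SE 0.36). Ankrd1, a stress-responsive sarcomere protein, and Retn, the adipokine resistin, had differences of -2.88 (SE 0.78) and -2.56 (SE 0.69).

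Of the gene lists, fatty acid oxidation held the most of these calls. Of 35 fatty acid oxidation genes 10 had a higher effect in high-insulin mice and 0 a lower one, with a list median of 0.49 beside -0.025 for all genes. Acot2, a mitochondrial acyl-CoA thioesterase, had log2 fold changes of 0.48 (SE 0.27) in high-insulin and -1.65 in low-insulin mice, a difference of 2.13 (adjusted p = 0.00348), and Acsl1, which activates long-chain fatty acids, 0.15 and -0.68, a difference of 0.83 (adjusted p = 0.000129). Among PPAR and fatty-acid responsive genes 8 of 34 were higher, among lipolysis and lipid droplet genes 4 of 30 and among amino acid genes 5 of 28, with 0 lower in each list. Of all genes, 1.46% were called in either direction. Lists can share genes: Acot2 is in both the oxidation and the PPAR list, so such a call counts in each. Plin5, the droplet coat protein of oxidative tissue, had -0.11 and -1.78 (difference 1.68, adjusted p = 0.0039), and Lpl 0.40 and -0.69 (difference 1.08, adjusted p = 0.00117). Gpt and Bcat2, aminotransferases for alanine and branched-chain amino acids, had differences of 1.07 and 1.07. Of 21 fatty acid synthesis genes 2 were lower, Acly (-1.53) and Tecr (-0.68), and 0 higher. In the clock list of 21 genes, Nfil3 was higher (1.11) and Per3, Bhlhe41 (-1.03) and Nr1d2 (-0.68) were lower; the hour of tissue collection is not given.

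**Figure D5:**
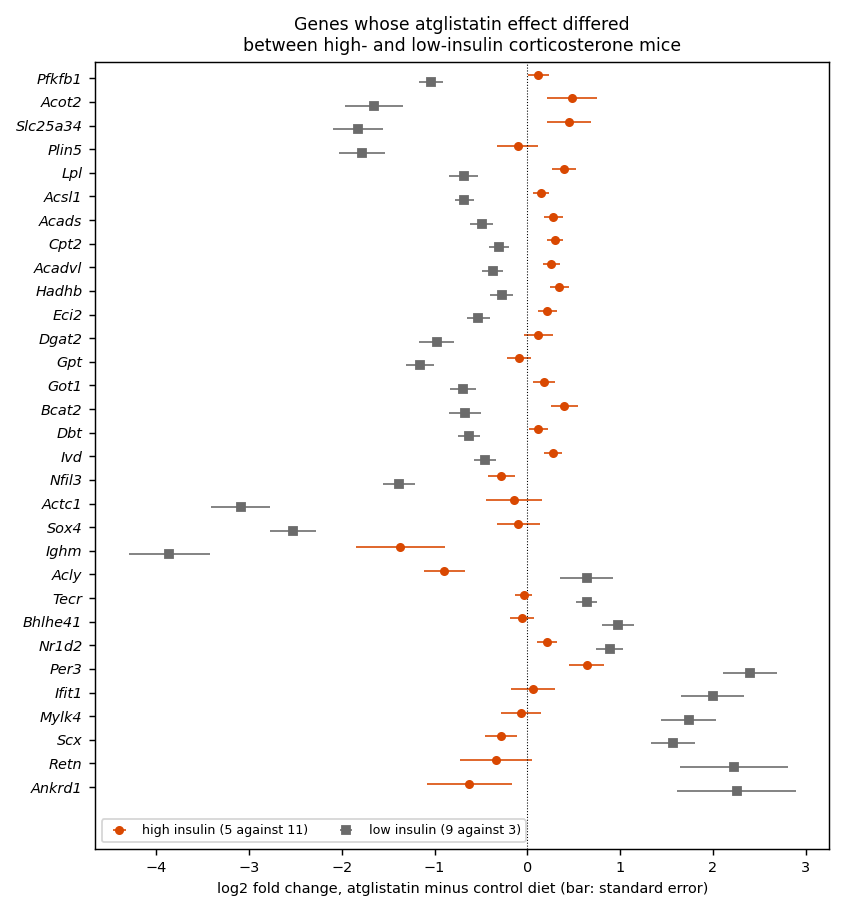
Log2 fold change, atglistatin minus control diet (x axis, bars are standard errors), in high-insulin (circles, 5 against 11 mice) and low-insulin corticosterone mice (squares, 9 against 3) for 31 genes (y axis) whose effects differed past the threshold. Most circles lie near 0, with Ighm at -1.37 and Acly at -0.89 the lowest, and the squares lie away from 0 on either side.

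The 6 genes called in high-insulin mice were measured in the low-insulin mice too. The log2 fold changes in the 9 and 3 low-insulin mice were 0.93 for Mylk2, 0.59 for Itgb5, 0.40 for Gyg, 0.54 for Lrrc2, 0.34 for 2410006H16Rik and -2.92 for Dupd1. None of the 6 differed between the insulin groups past the threshold (adjusted p from 0.123 for Dupd1, with a difference of 1.33, SE 0.43, to 0.995 for Lrrc2, edgeR), which does not show that the effects are equal. Mylk2 had a mean of 934.0 ± 187 CPM in high-insulin and 790.8 ± 75.9 CPM in low-insulin atglistatin mice, above 611.4 ± 33.8 and 414.1 ± 24.6 CPM on control diet (SD, n = 5, 9, 11 and 3). Dupd1 had 4.29 ± 1.82 and 6.95 ± 2.70 CPM on atglistatin, and 12.83 ± 5.09 and 52.64 ± 5.79 CPM on control diet.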

How the data were processed

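Muscle RNA was profiled in 48 libraries with QuantSeq, which primes near the 3′ end and was read once, 50 bases forward, per the labels' protocols. The authors deposited 1 table of raw read counts for 14125 genes; they name the GRCm38 genome, R 3.6.1 and DESeq2 1.24.0, per the submitters' processing notes. The sources used here do not give the aligner, counter, strand setting or annotation. In 47 of 48 libraries every count was even; halving the counts was an alternative.

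Genes with low counts were removed with filterByExpr (643 removed, 13482 tested). Counts were scaled by TMM and fitted over 6 groups with edgeR 4.0.16 (robust quasi-likelihood, Benjamini-Hochberg adjustment, threshold 0.05) in R 4.3.3. DESeq2 1.42.0 and limma 3.58.1 (voom) were alternatives, as were other size factors, no filter, other insulin cuts, other control subsets and a replicate block. In further alternatives 1 library was left out, for each of 19 libraries. These were the high-insulin libraries and the low-insulin control-diet libraries. Vehicle and low-insulin atglistatin libraries were not left out. Scripts were tested on simulated data. Symbols came from GENCODE M21 (14094 IDs matched). No pair of libraries of 1 group looked like a repeat deposit (lowest chi-square per degree of freedom 8.897 over 65 pairs). Glucose was compared by an exact permutation test over mice.

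The mice and gene lists were chosen with earlier results of these data known. Named by rule were the genes past the threshold with the largest changes, up to 12 each way (5 each way in the nondiabetic comparison and the differences), with an established symbol and a mean over the 16 libraries of 5 CPM or more; the 3 smallest p-values of any list with 3 or more calls; and 10 fixed genes (Angptl4, Fbxo32, Fkbp5, Glul, Mstn, Pdk4, Plin2, Pnpla2, Trim63 and Tsc22d3). Other genes were named after their values were seen.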

Additional observations from a re-analysis of the deposited data

Results flagged for a closer look

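The 88 values tested were levels of named genes with insulin, glucose and total count, all in the same 5 libraries. In 4 of them, all genes, 1 of the 5 atglistatin mice stood apart from the other 4. Chance flags about 1 in 20. Il15ra was 14.99 CPM in p39 against 7.263 to 8.628. Myh7, the slow myosin heavy chain, was 180.7 CPM in p23 against 58.91 to 70.03. In p18, Pnpla2 was 264.8 CPM against 333.9 to 342.8 and Txnip 199.8 against 487.2 to 689.3.

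The effect of atglistatin differed between high-insulin and vehicle mice (edgeR test of the difference, in log2) for Sparc by 0.748 and Itgb5 by 0.55.

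It differed between high-insulin and low-insulin corticosterone mice by the same test for 40 named genes. In fatty acid oxidation and uptake the differences were 0.679 for Acaa2, 0.774 for Acads, 0.632 for Acadvl, 2.131 for Acot2, 0.831 for Acsl1, 0.646 for Cd36, 0.601 for Cpt2, 0.743 for Eci2, 0.619 for Hadhb, 1.083 for Lpl and 0.716 for Mlycd. In lipid storage and synthesis they were -1.534 for Acly, 1.097 for Dgat2, 0.715 for Fitm2, 0.668 for Lpin1, 1.675 for Plin5 and -0.677 for Tecr. In amino acid metabolism they were 1.065 for Bcat2, 0.746 for Dbt, 0.877 for Got1, 1.067 for Gpt and 0.738 for Ivd. In glycolysis and insulin signalling they were 1.158 for Pfkfb1, 0.726 for Slc16a3, 0.651 for Ptpn1 and -0.943 for Tbc1d1. In the clock they were -1.028 for Bhlhe41, 1.105 for Nfil3, -0.676 for Nr1d2 and -1.76 for Per3. The others were 2.945 for Actc1, -2.883 for Ankrd1, 1.508 for Car3, -1.936 for Ifit1, 2.489 for Ighm, -1.806 for Mylk4, -2.564 for Retn, -1.851 for Scx, 2.276 for Slc25a34 and 2.432 for Sox4. The 3 low-insulin control-diet mice stood apart in summed adipocyte and lymphocyte markers, the second mostly Ighm. The adipocyte sum does not stand for its list. The part of these markers in the differences was not tested.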

How the results depend on the processing

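The number of genes called in high-insulin mice (6) stayed within 1.5 times in 19 of 31 alternatives. It was 54 with DESeq2, 25 with voom and 2 with the 16 libraries alone. Those 2 were Mylk2 and Mical2, so only Mylk2 of the 6 was kept. The number was 2 with diabetic and 3 with nondiabetic control-diet mice alone. With no selection on insulin it was 201, and with insulin as a covariate over all corticosterone mice 130. It was 0 at insulin of 30 or more (3 against 9 mice; 920 at an unadjusted p under 0.05 by edgeR), and 0 to 30 when leaving out 1 library. The count against nondiabetic mice (3) was 14 with DESeq2, 11 with voom, 0 with glucose under 200 only (803 unadjusted, edgeR), and 0 to 11 when leaving out 1 library. The count of differences from vehicle mice (2) was 1 with RLE size factors, 1 with no filter, 1 with voom, 5 with no selection on insulin, and 0 to 2 when leaving out 1 library. That from low-insulin mice (197) was 416 with voom and 45 to 211 when leaving out 1 library. No vehicle or low-insulin atglistatin library was among those left out. The glucose difference was -40.5 against nondiabetic mice and -142.5 to -114.9 when leaving out 1 mouse. The causes were not tested. None of the 6 called genes changed direction in the 31 alternatives. Among uncalled genes with values in the report, Fkbp5, Trim63, Mstn, Pdk4, Pnpla2, Lpl, Plin4, Plin5, Abhd5, Lipe, G0s2, Pygm and Hk2 took the other sign in at least 1, none past the threshold there. Intervals were widest for weakly expressed genes.

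With a replicate block the counts were 4, 3, 1 and 142. The 2 groups of the main comparison share no replicate number. Numbers are shared by other groups, in 6 pairs whose deviations correlated at -0.179 to 0.235 (2 of 6 over 0.1). Only for p09 was the library of the same number the closest match in the other group (0.156, beside a median of -0.032 for other numbers). The labels do not say what a shared number means, and beyond these correlations no test of pairing was run.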
